A study of Mus musculus with 6 samples.

Results

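The genes described here are 39 genes of the cell cycle and of DNA replication, measured in the colonic crypts of mice given the EZH2 inhibitor GSK503 or vehicle. They were chosen by function from a list of gene symbols, and all 39 were found among the 18049 genes of the deposited crypt table. By role, 12 act in origin licensing and at the replisome, 4 supply deoxynucleotides, 5 are regulators of G1 and of the G1/S transition, and 18 act in G2 and mitosis. The first 2 roles, 16 genes in all, are called the replication genes below, and the last 18 the mitosis genes.

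Both groups were mice of the same Lynch syndrome model on a C57BL/6J background, in which a Villin-Cre transgene acts in the intestinal epithelium. All 6 mice also carried a humanized knockin allele of *Tgf*β*RII* and were kept on a Western-style diet, and their ages at collection were not given in the sources used here. The 3 GSK503-treated mice received 200 μg/kg by repeated tail vein injection in PBS, and the 3 control mice received captisol in PBS. Total RNA of isolated crypts was sequenced with 1 library per mouse. The Villin promoter is active in epithelium, and Cre activity in other cells of the preparation was not measured here.

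The colonic crypt renews itself from stem cells at its base, and most of its divisions occur in the transit-amplifying cells above them. In G1, cyclins D and E with their kinases release the E2F factors, and E2F switches on the genes that load the MCM helicase on replication origins and fire them in S phase. Genes of G2 and mitosis are switched on later, by B-MYB and FOXM1 bound with the MuvB complex at the element named CHR, often beside CCAAT boxes bound by NF-Y. Transcripts of both groups are therefore abundant in dividing cells and low in resting ones, and EZH2, the methyltransferase of lysine 27 on histone H3, is itself encoded by a gene of the E2F class.

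The promoters were searched for the letters of these elements. RefSeq promoter windows of 300 bases (build GRCm38.p6, 250 bases before the gene start and 50 after it) were matched by symbol for 29 of the 39 genes. The search covered both strands, for E2F letters (TTTCCCGC, TTTCGCGC, TTTGCCGC or TTTGGCGC), for CHR letters (TTTGAA or TTCGAA) and for CCAAT. E2F letters were found in 6 of 9 licensing and replisome promoters and in 1 of 14 mitosis promoters, against 3.77% of the 12654 windows of genes tested and 2.32% of all 27025 windows. CHR letters were found in 11 of 14 mitosis promoters and in 3 of 9 licensing and replisome promoters, against 14.8% of the windows of genes tested and 19.4% of all windows. CCAAT stood in 13 of 14 mitosis promoters and 7 of 9 licensing and replisome promoters, against 38.5% and 37.9%. Neither E2F nor CHR letters were found in the 4 nucleotide supply promoters or in the 2 of G1 regulators, while CCAAT stood in 2 of the 4 and 0 of the 2. A match describes the letters of the window and is not a measured binding site.

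The windows of the 2 mitosis and 2 replication genes with the smallest p that have an entry are shown, to set the letters of the classes side by side, with *Mcm6* added after the values were seen because it holds both E2F letters and CCAAT. Each is the 250 bases before the gene start on the gene's own strand, in lower case, with matches to the letters above in capitals on either strand. Their positions in GRCm38.p6 are chr7:135716380-135716629 on the minus strand for *Mki67*, chr3:135212313-135212562 on the plus strand for *Cenpe*, chr7:102441445-102441694 on the plus strand for *Rrm1*, chr16:18811973-18812222 on the minus strand for *Cdc45* and chr1:128359706-128359955 on the minus strand for *Mcm6*.
Mki67: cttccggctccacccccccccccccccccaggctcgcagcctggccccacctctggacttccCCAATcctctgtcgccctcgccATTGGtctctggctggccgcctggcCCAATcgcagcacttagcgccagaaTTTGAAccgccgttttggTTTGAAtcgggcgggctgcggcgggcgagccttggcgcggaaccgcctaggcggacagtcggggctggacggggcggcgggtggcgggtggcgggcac
Cenpe: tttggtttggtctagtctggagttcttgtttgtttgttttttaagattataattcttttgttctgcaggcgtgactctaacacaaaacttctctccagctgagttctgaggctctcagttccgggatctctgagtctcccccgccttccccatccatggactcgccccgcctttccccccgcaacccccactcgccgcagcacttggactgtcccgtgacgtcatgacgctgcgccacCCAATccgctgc
Rrm1: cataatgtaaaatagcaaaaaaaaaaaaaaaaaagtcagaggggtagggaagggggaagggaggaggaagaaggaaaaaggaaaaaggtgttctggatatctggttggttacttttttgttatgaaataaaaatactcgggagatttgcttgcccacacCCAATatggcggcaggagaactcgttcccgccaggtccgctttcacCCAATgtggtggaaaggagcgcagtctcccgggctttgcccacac
Cdc45: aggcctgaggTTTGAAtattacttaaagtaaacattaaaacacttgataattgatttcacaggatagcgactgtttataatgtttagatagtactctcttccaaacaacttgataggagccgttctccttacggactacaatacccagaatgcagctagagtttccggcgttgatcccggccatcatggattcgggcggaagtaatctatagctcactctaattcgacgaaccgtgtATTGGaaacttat
Mcm6: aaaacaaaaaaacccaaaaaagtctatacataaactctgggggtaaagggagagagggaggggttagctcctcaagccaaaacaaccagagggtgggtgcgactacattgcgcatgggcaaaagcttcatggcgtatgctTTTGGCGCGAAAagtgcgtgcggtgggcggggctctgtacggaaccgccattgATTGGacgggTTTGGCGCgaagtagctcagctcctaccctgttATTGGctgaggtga
The *Mki67* window holds CHR letters beginning 116 and 98 bases before the start, and CCAAT at 188, 166 and 141 bases. In *Mcm6*, the E2F letters begin 110, 106 and 47 bases before the start, where the first pair overlap on opposite strands, and CCAAT lies at 57 and 14 bases. The window of *Cenpe* holds CCAAT alone, at 12 bases, and that of *Rrm1* CCAAT at 91 and 45 bases. *Cdc45* has CCAAT at 13 bases and CHR letters at 240 bases.

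Values are the deposited estimated CPM, scaled to the TMM-normalized library. The libraries held 1.08e+08 to 1.35e+08 estimated counts, and each of the 39 genes held between 277 and 97605 estimated counts in a library. A floor of 3 counts corresponds to 0.0228 to 0.0271 on the CPM scale and covers counting error only. The epithelial markers *Epcam*, *Krt8*, *Cdh1* and 5 others summed to 12154 to 13649 in control and 13141 to 15295 in GSK503-treated mice, so the libraries carry the labelled epithelium. *Xist* was 0.419 to 0.936 in the control mice and 825 to 1236 in the treated mice, and the Y-linked *Uty* was 42.5 to 53.7 against 0.670 to 1.08. Sex-linked transcripts thus separate the groups, and for each difference below the treatment and the sex of the mice cannot be told apart. *Ezh2* mRNA was 46.7, 37.4 and 46.5 in the controls and 36.6, 35.2 and 36.3 in the treated mice, which does not overlap, but an inhibitor of the enzyme need not alter this mRNA and the value does not check the labels.

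After GSK503, none of the 39 cell cycle genes passed the test, and the lowest log2FC was that of *Mki67*. *Mki67*, *Cenpe*, *Bub1*, *Bub1b* and *Top2a* had all 3 treated values below all 3 control values, or 12.8% of the 39 against 9.22% of all genes tested. As computed from the log2FC, these 5 genes were 11.1% to 23.9% lower. The gap between the groups could be far narrower, and for *Bub1* the lowest control was 18.50 and the highest treated mouse 18.44. The MCM helicase genes, the cyclins and the G1 regulators all overlapped between the groups. One treated mouse, GSK503 mouse 3, had the lowest value of all 6 mice for 31 of the 39 genes.

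Tests were made in limma on log2(value + 0.1), with Benjamini-Hochberg adjustment over the 16670 genes that had at least 0.1 in at least 3 mice, and all 39 genes passed that filter. Of the 39, 0 had an adjusted p below 0.05 in limma, where 0.498% of all genes tested were called higher and 0.144% lower. In limma-voom on estimated counts 0 of the 39 passed 0.05, against 104 calls over all genes. At adjusted p below 0.1 in limma the count was also 0 (all genes 1.41% higher and 0.558% lower). At an unadjusted p below 0.05 there were 3 of 39, all lower, against 6.27% of all genes lower and 13.3% in either direction. The groups did not overlap for 5 of 39 genes in the lower direction and 0 in the higher, against 9.22% and 9.84% of all genes tested. A p above the threshold does not show equal levels, and the 95% intervals give the bounds. For 35 of 39 genes the interval lay within a 1.5-fold change in either direction, and the exceptions were *Mki67*, *Gins1*, *Gins2* and *E2f1*. In bulk crypt RNA, fewer dividing cells and less of a transcript per dividing cell cannot be told apart.

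The median log2FC (GSK503 minus control) was -0.09 over the 39 genes, -0.08 over the replication genes and -0.10 over the mitosis genes, where all genes tested had a median of -0.005. The log2FC was below 0 for 25 of 39 genes, against 51.1% of all genes. Scaling by library size alone moved the median of all genes to -0.12 and scaling by epithelial markers moved it to -0.15, and 38 and 39 of the 39 genes were then below 0. With these scalings 4 of the 39 genes, *Mki67*, *Cenpe*, *Top2a* and *Bub1b*, had an adjusted p below 0.1 in limma and were lower, against 4.77% and 2.95% of all genes. A scaling moves all genes of a library together, so it bears little on the count relative to the median of all genes, of which 25 of 39 lay below.

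**Figure D1:**
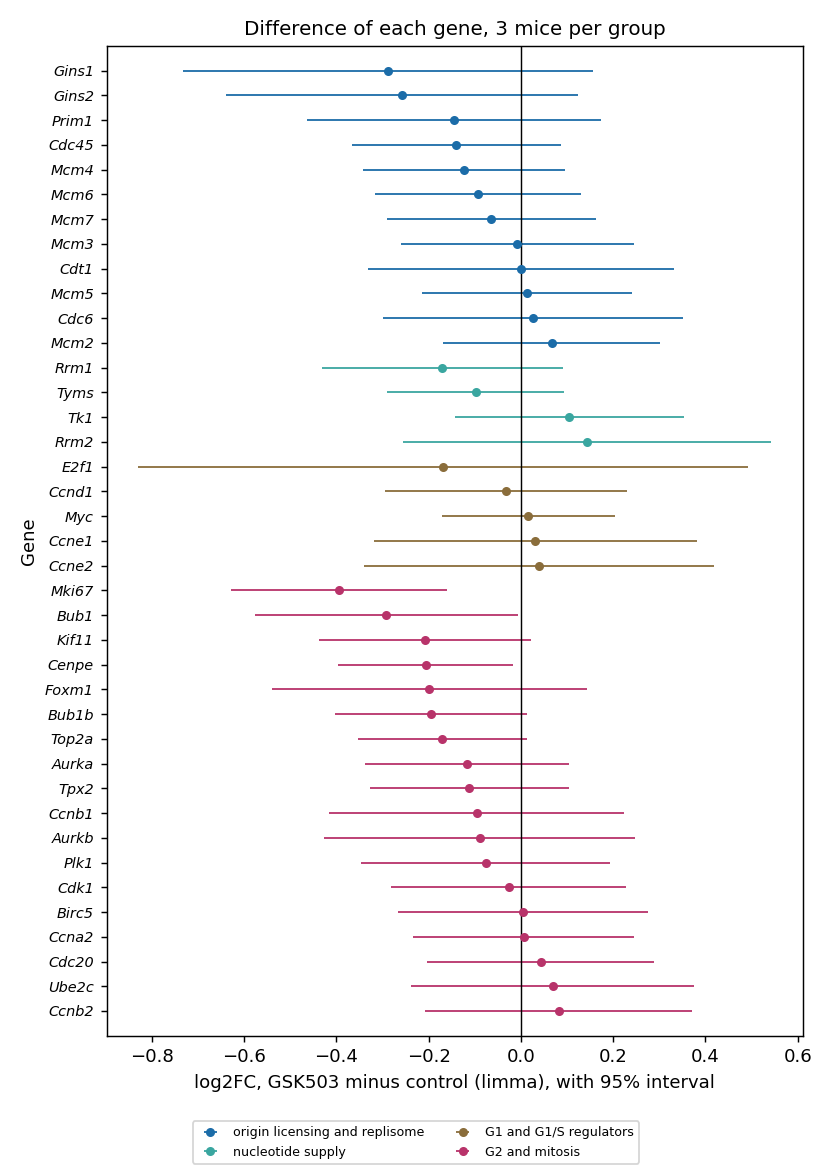
The log2FC of each of the 39 genes (GSK503 minus control, limma, 3 mice per group) is plotted with its 95% interval, in colors by role. The intervals of *Mki67*, *Bub1* and *Cenpe* lie below 0 and all others cross 0, and under scaling by library size alone or by epithelial markers the points shift to the left together.

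The MCM genes encode the 6 subunits of the replicative helicase, which is loaded at origins in G1. Their log2FC ran from -0.12 for *Mcm4* to 0.07 for *Mcm2*, and the groups overlapped for each of them. *Mcm6*, the most abundant of the 6 per kilobase of transcript, was 100.3, 90.0 and 112 in the controls and 93.5, 103 and 85.8 in the treated mice. *Mcm2* was 65.8, 65.3 and 80.5 in the controls and 78.5, 76.8 and 65.8 in the treated mice. Thus control mouse 3 was the highest of the controls and GSK503 mouse 3 the lowest of the treated mice for both. *Cdc6* and *Cdt1*, the loading factors of the helicase, had log2FC of 0.03 (SE 0.14) and 0.0010 (SE 0.15). *Cdt1* was 17.5 ± 2.59 (SD, n = 3) in control and 17.5 ± 2.73 (SD, n = 3) in treated mice.

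The GINS complex and CDC45 join the MCM ring to form the active helicase, and PRIM1 is the catalytic subunit of primase. *Gins2*, the replication gene with the smallest p, was 28.8, 23.8 and 32.0 in the controls and 26.5, 27.0 and 17.9 in the treated mice. Its 2 other treated values lie inside the range of the controls, and GSK503 mouse 3 alone lay below it. The log2FC was -0.26 (SE 0.17, 95% interval -0.64 to 0.12, adjusted p = 0.556 in limma) and -0.07 without that mouse. *Gins1* was 6.04, 4.70 and 4.71 in the controls and 3.93, 5.02 and 3.67 in the treated mice, with a log2FC of -0.29 (SE 0.20, adjusted p = 0.572 in limma). Here GSK503 mouse 2 lay above 2 of the controls. *Cdc45* (log2FC -0.14, SE 0.10) and *Prim1* (log2FC -0.15, SE 0.14) overlapped as well. Over the 12 licensing and replisome genes, 8 had a log2FC below 0 and 4 above, and the median was -0.08. None of the 12 had groups without overlap, against 9.22% of all genes lower and 9.84% higher, a small difference for so few genes.

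Ribonucleotide reductase, made of RRM1 and RRM2, reduces ribonucleotides to deoxynucleotides, while thymidylate synthase (*Tyms*) and thymidine kinase 1 (*Tk1*) supply thymidine nucleotides. *Rrm1* was 90.6, 85.3 and 99.0 in the controls and 87.0, 91.5 and 67.4 in the treated mice (log2FC -0.17, SE 0.12, adjusted p = 0.570 in limma). Its partner *Rrm2* was 23.7, 20.9 and 28.9 in the controls and 33.1, 28.4 and 20.5 in the treated mice (log2FC 0.14, SE 0.18). The 2 subunits of 1 enzyme thus had log2FC of opposite sign, each with an interval that includes 0, and that of *Rrm2* was -0.0038 under scaling by epithelial markers. *Tk1* had a log2FC of 0.11 (SE 0.11) and *Tyms* of -0.10 (SE 0.09). Without GSK503 mouse 3 the log2FC of *Rrm2* was 0.34 and that of *Tk1* 0.21, and *Tk1* was then higher in both remaining treated mice (44.1 and 44.1) than in the controls (34.5 to 40.2).

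Among the G1 regulators, cyclin D1 (*Ccnd1*) starts passage through G1 with CDK4 and CDK6, and the cyclins E (*Ccne1*, *Ccne2*) complete it with CDK2. *Ccnd1* was 135, 183 and 184 in the controls and 168, 163 and 156 in the treated mice. The treated mice lay between control mouse 1 and the other controls, with a log2FC of -0.03 (95% interval -0.29 to 0.23). *Ccne1* and *Ccne2* had log2FC of 0.03 (SE 0.16) and 0.04 (SE 0.17). *Myc*, a transcription factor that promotes growth and entry into the cycle, had the smallest SE of the 5 (0.08), at 34.8 ± 1.39 (SD, n = 3) in the controls and 35.2 ± 2.12 (SD, n = 3) in the treated mice. *E2f1*, the founding member of the E2F factors, was the least abundant of the 39 per kilobase and had the largest SE (0.29), at 4.52, 2.51 and 5.39 in the controls and 4.21, 2.82 and 3.59 in the treated mice. Its interval, -0.83 to 0.49, leaves a change of over 1.5-fold in the lower direction possible.

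*Mki67* encodes Ki-67, the nuclear protein that coats mitotic chromosomes and is used as a marker of cycling cells. It lies at chr7:135291513-135318299 on the minus strand (GRCm39), and its canonical transcript has 14 exons and 10.27 kb, the longest of the 39. Its values were 706, 646 and 768 in the controls and 579, 559 and 477 in the treated mice, each in the order of mice 1, 2 and 3. The highest treated value was thus below the lowest control value. The log2FC was -0.39 (SE 0.10, 95% interval -0.63 to -0.16), or 23.9% lower, with an adjusted p of 0.136 in limma and 0.0427 to 0.378 over 19 alternative settings. The lower end came with scaling by library size alone, and scaling by epithelial markers gave 0.0430. Leaving out each mouse in turn gave -0.46 to -0.31. Because its log2FC was the lowest of the 39, *Mki67* was necessarily lower on average relative to the other 17 mitosis genes. Its log2 value minus their mean was 3.82, 3.67 and 3.89 in the controls and 3.48, 3.44 and 3.55 in the treated mice, and this contrast within a library does not depend on the scaling.

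CENP-E is the kinesin that moves chromosomes to the spindle equator, and BUB1 and BUBR1 (encoded by *Bub1b*) act in the spindle checkpoint. *Cenpe* was 89.7, 93.2 and 98.0 in the controls and 87.2, 83.5 and 73.1 in the treated mice (log2FC -0.21, SE 0.08, adjusted p = 0.335 in limma). *Bub1* was 18.5, 20.3 and 23.1 in the controls and 17.5, 18.4 and 14.6 in the treated mice (log2FC -0.29, SE 0.13, adjusted p = 0.363 in limma). For both, the gap between the groups was narrow, and GSK503 mouse 3 was the lowest. *Bub1b* was 73.1, 75.6 and 77.4 in the controls and 68.1, 72.5 and 57.7 in the treated mice (log2FC -0.20, SE 0.09). *Top2a*, the topoisomerase that untangles sister chromatids, was 345, 329 and 349 in the controls and 314, 321 and 276 in the treated mice (log2FC -0.17, SE 0.08). It was second to *Mki67* in level per kilobase, with control means of 65.0 and 68.8.

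The remaining mitosis genes overlapped between the groups. The spindle motor *Kif11*, the spindle assembly factor *Tpx2* and its kinase *Aurka* had log2FC of -0.21, -0.11 and -0.12, and *Foxm1*, a transcription factor of the mitosis program, had -0.20 (SE 0.15). *Cdk1*, the mitotic kinase, had -0.03 and the mitotic cyclins *Ccna2*, *Ccnb1* and *Ccnb2* had 0.0065, -0.10 and 0.08. *Plk1*, a kinase of mitotic entry, and *Aurkb*, the kinase of the chromosomal passenger complex, had -0.08 and -0.09. *Birc5*, the survivin subunit of the passenger complex, was 46.9, 46.2 and 47.9 in the controls and 52.9, 51.8 and 38.2 in the treated mice. GSK503 mice 1 and 2 were above all controls and mouse 3 below all of them, for a log2FC of 0.0050. *Cdc20* and *Ube2c*, which activate the anaphase-promoting complex and carry its ubiquitin, had 0.04 and 0.07. For *Ccna2*, *Ccnb2*, *Cdc20*, *Birc5* and *Ube2c* the sign turned negative under scaling by library size alone or by epithelial markers.

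**Figure D2:**
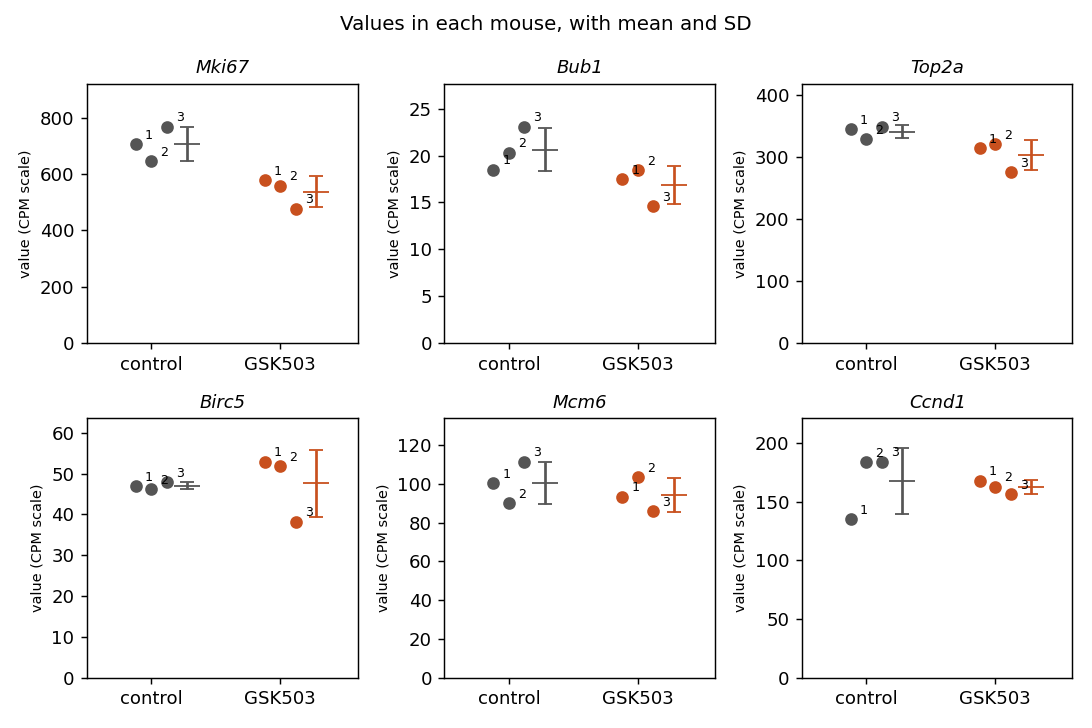
The value of 6 genes in each mouse (CPM scale, axes from 0) is plotted by group, with the mouse number beside each point and the mean and SD (n = 3) to the right. The groups do not overlap for *Mki67*, *Bub1* and *Top2a* and overlap for *Birc5*, *Mcm6* and *Ccnd1*.

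GSK503 mouse 3 stood apart across the list. It had the lowest value of the 6 mice for 31 of 39 genes (79.5%) and for 17 of 18 mitosis genes, where it was lowest for 21.1% of all genes tested. Of the 39, the count was 36 under scaling by library size alone and 29 under scaling by epithelial markers. The shares of all genes under these scalings were not computed. Control mouse 3 had the highest value for 22 of 39 genes (56.4%), against 22.7% of all genes. The mean log2 value of the 39 genes was 5.40, 5.34 and 5.51 in the controls and 5.45, 5.43 and 5.14 in the treated mice. GSK503 mice 1 and 2 therefore lay within the range of the controls and mouse 3 below it. For the mitosis genes the means were 5.86, 5.87 and 5.92 against 5.89, 5.88 and 5.55.

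Without GSK503 mouse 3, the median log2FC over the 39 genes was -0.0052, with 20 genes below 0 and 19 above. The medians of the replication and mitosis genes were 0.0046 and 0.01. In the same fit without GSK503 mouse 3, the groups did not overlap for 5 genes lower and 6 higher, against 16.1% and 18.5% of all genes. The log2FC of *Mki67* was then -0.31, that of *Bub1* -0.19, that of *Cenpe* -0.13, that of *Top2a* -0.10 and that of *Bub1b* -0.10, each nearer to 0 than with all 6 mice. Without control mouse 3 instead, the median over the 39 genes was -0.04, and those of the replication and mitosis genes were -0.0075 and -0.07.

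**Figure D3:**
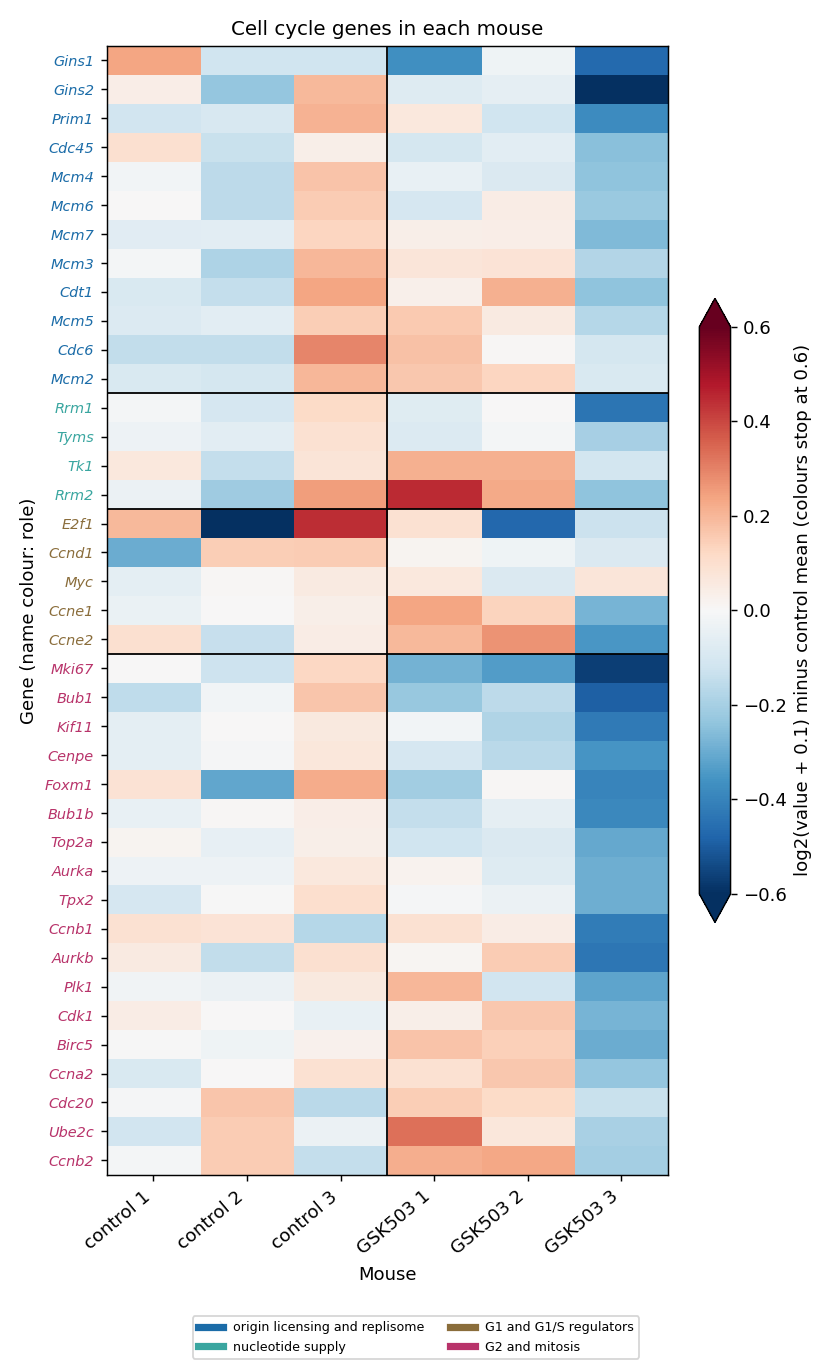
Each row is 1 of the 39 genes and each column 1 mouse, and the color gives log2(value + 0.1) minus the mean of the 3 controls, with rows grouped by role and ordered by log2FC within a role. The column of GSK503 mouse 3 is blue in nearly every row, while *Mki67* is blue in all 3 treated mice.

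**Figure D4:**
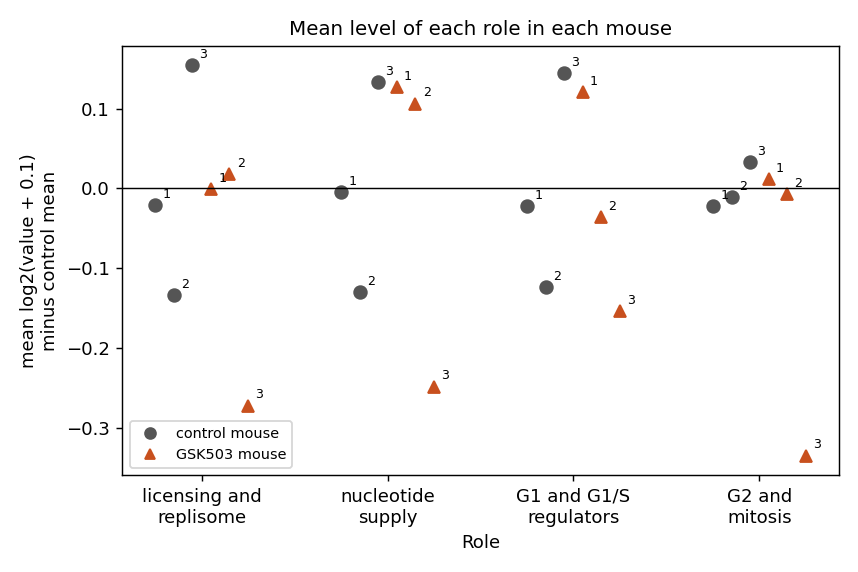
The mean log2(value + 0.1) of the genes of each role, minus the mean of the 3 controls, is plotted for each mouse with its number. With the deposited values GSK503 mouse 3 (triangle) is the lowest point in each of the 4 roles, and GSK503 mice 1 and 2 lie within the range of the controls (circles).

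The summed markers of other cells also varied between mice, with GSK503 mouse 3 the highest for some cell types and not for others. The 6 smooth muscle markers (*Myh11*, *Acta2* and *Tagln* among them) summed to 20.9, 90.1 and 46.2 in the controls and to 4.52, 4.26 and 122 in the treated mice, so that GSK503 mouse 3 was the highest of all. The 8 macrophage markers summed to 87.7, 122 and 105 against 62.3, 60.3 and 114, with *Cd14* the most abundant. Without *Cd14* the other 7 summed to 27.1, 47.0 and 27.5 against 10.1, 6.19 and 65.0. The 7 fibroblast markers summed to 276, 248 and 218 against 268, 348 and 395, with *Gsn* the most abundant, while 5 of the 7 had a log2FC below 0. Without *Gsn* the other 6 summed to 60.2, 77.1 and 61.7 against 25.1, 33.8 and 113. The 6 endothelial markers summed to 12.6, 11.1 and 10.4 against 13.9, 11.8 and 20.4, with *Vwf* the most abundant, while 5 of the 6 had a log2FC below 0. Without *Vwf* the other 5 summed to 6.14, 6.20 and 3.997 against 1.82, 2.05 and 9.78. Without *Cd14*, *Gsn* and *Vwf*, the macrophage, fibroblast and endothelial sums were thus lowest in GSK503 mice 1 and 2. They were highest in GSK503 mouse 3, as the smooth muscle sum was. The 8 B cell markers summed to 12.4, 33.8 and 4.75 against 3.82, 1.49 and 4.13, which does not overlap, with *Cd79a* at 0 in GSK503 mouse 2 and *Ighd* at 0 in GSK503 mouse 3. The 8 T cell markers summed to 13.2 to 19.2 against 11.5 to 14.9. All of these lie far below the epithelial sum, and their part in the values of the cell cycle genes was not tested. Within the epithelium, the 8 differentiated colonocyte markers summed to 3822, 3797 and 3927 against 6320, 4204 and 2899. The most abundant, *Car1*, was 1791, 2206 and 2185 against 4019, 2069 and 954, and was the 1 of the 8 that was lowest in GSK503 mouse 3. Without *Car1* the other 7 summed to 2032, 1591 and 1742 against 2301, 2135 and 1945. The 8 colonic stem cell markers, with *Lgr5* and *Axin2* among them, summed to 196 to 213 in the controls and 159 to 213 in the treated mice.

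Among the 18 mitosis genes, those with longer transcripts had the lower log2FC. Across the 18 genes, which share the 6 libraries, Spearman's rho between log2FC and canonical transcript length was -0.81, and -0.76 without *Mki67* and *Cenpe*. Leaving out each mouse in turn gave -0.84 to -0.67. At a limit of 3 kb, set after the values were seen, the 8 shorter genes (*Ccna2*, *Ccnb1*, *Ccnb2*, *Aurkb*, *Plk1*, *Cdc20*, *Birc5* and *Ube2c*) had log2FC from -0.10 to 0.08 with a median of 0.0058. The 10 longer genes were all below 0, with a median of -0.20. Relative to the median of all genes, the longer genes were at -0.19 and the shorter at 0.01. The mean log2 value of the longer genes was 6.25, 6.23 and 6.37 in the controls and 6.18, 6.19 and 5.90 in the treated mice, and the groups did not overlap. That of the shorter genes was 5.37, 5.43 and 5.35 against 5.54, 5.48 and 5.10, with treated mice above and below the controls.

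The same order, weaker, ran through all coding genes. Over 14659 coding genes tested, rho was -0.19, and the median log2FC went from 0.11 for transcripts under 1 kb to -0.11 for those of 8 kb or more. Of the 1025 coding genes of 8 kb or more, 11.1% had a log2FC at or below that of *Mki67*. Among the cell cycle genes, rho was -0.42 over all 39 genes, 0.45 over the 12 licensing and replisome genes and -0.0059 over the 16 replication genes. Over the 67 other mitosis genes described below it was -0.40, and over the 48 other replication genes -0.37. Over the 21 other G1/S control genes rho was -0.44. When each library was adjusted for a smooth trend of log2 value on length, a step added after the data were seen, *Mki67* had a log2FC of -0.29 (adjusted p = 0.167 in limma). The 10 longer mitosis genes then had a median of -0.14 and the 8 shorter of -0.06, and rho over the 18 was -0.58. The part of transcript length in these values, apart from gene function, was not tested further.

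**Figure D5:**
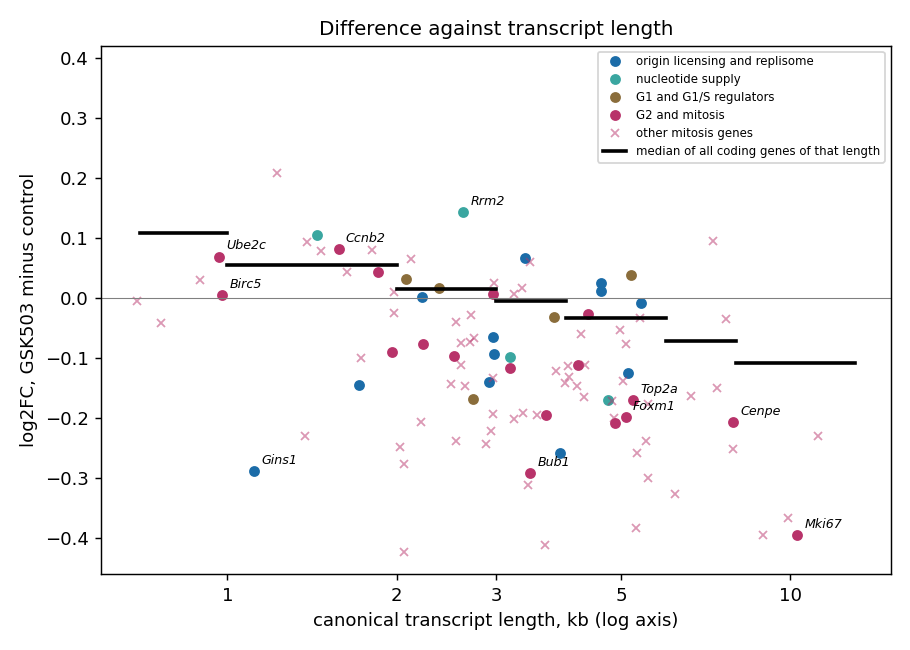
The log2FC (GSK503 minus control) of the 39 genes is plotted against canonical transcript length in kb on a log axis, colored by role, with crosses for 67 other mitosis genes and black bars for the median of all coding genes in each range of length. The mitosis genes go from 0.07 for *Ube2c* at 0.967 kb to -0.39 for *Mki67* at 10.27 kb, while the bars go from 0.11 to -0.11, and all points shift together under the other scalings.

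Other genes of the same pathways were read from lists written by function. Of 67 other mitosis genes, 54 had a log2FC below 0, with a median of -0.14, 9 had groups without overlap in the lower direction (13.4%, against 9.22% of all genes) and 0 in the higher (9.84% of all genes). At adjusted p below 0.1, 1 of the 67 passed and was lower, against 0.558% of all genes. It was *Aspm*, which encodes a protein of the spindle poles, at 67.8, 71.0 and 75.3 in the controls and 57.6, 56.7 and 51.7 in the treated mice. Its log2FC was -0.37 (SE 0.08, adjusted p = 0.0766 in limma and 0.0244 to 0.270 over the alternatives), and like *Mki67* it has a long transcript, of 9.894 kb. Next came *Sgo2a*, a shugoshin that guards centromeric cohesion, at 21.8, 21.7 and 24.5 against 17.6, 18.0 and 16.4 (log2FC -0.38, adjusted p = 0.130 in limma). For both genes every treated mouse was below every control. Without GSK503 mouse 3 the median of the 67 was -0.03, and the adjusted p of *Aspm* was 0.105. CHR letters stood in 41 of 57 promoters of these genes.

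Of 48 other replication genes, 35 had a log2FC below 0, the median was -0.05, 0 passed at adjusted p below 0.1 in limma, 1 had an unadjusted p below 0.05 (all genes 6.27% lower), and 3 had groups without overlap, all lower (6.25%, under the 9.22% of all genes). *Rfc3*, a subunit of the clamp loader, was 18.9, 21.1 and 20.0 in the controls and 16.4, 16.8 and 16.3 in the treated mice (log2FC -0.28, SE 0.10, adjusted p = 0.255 in limma). *Orc3*, a subunit of the origin recognition complex, was 31.0, 31.0 and 30.3 against 28.2, 27.4 and 27.0 (log2FC -0.16, adjusted p = 0.432 in limma). Both had treated mice close to each other and below the controls, and both moved little without GSK503 mouse 3 (-0.27 and -0.15). The median of the 48 was 0.02 without that mouse and -0.0077 without control mouse 3. E2F letters stood in 11 of 40 promoters of these genes.

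Of 21 other genes of G1/S control, 15 had a log2FC below 0 with a median of -0.07, 0 passed at adjusted p below 0.1 in limma, and 4 had an unadjusted p below 0.05, all lower (all genes 6.27%). In 5 of the 21, or 23.8% against 9.22% of all genes (*Rb1*, *Rbl1*, *Rbl2*, *Tfdp2* and *Lin9*), every treated mouse was below every control. *Rb1* and its relatives *Rbl1* and *Rbl2* encode the pocket proteins that hold E2F in check, and *Lin9* a subunit of MuvB. *Rbl1* (p107) was 55.9, 53.1 and 58.9 in the controls and 48.5, 46.8 and 40.3 in the treated mice (log2FC -0.31, SE 0.09, adjusted p = 0.174 in limma). *Tfdp2*, which encodes a partner of the E2F factors, was 59.7, 59.3 and 65.0 against 54.7, 51.3 and 52.3 (log2FC -0.22, adjusted p = 0.249 in limma). Without GSK503 mouse 3 the log2FC of *Rbl1* and *Tfdp2* were -0.23 and -0.21. With length-adjusted values they were -0.27 and -0.13, and rho between log2FC and length over the 21 genes was -0.44 before that adjustment. *Lin54* was not analysed here.

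Of 6 inhibitors of cyclin-dependent kinases, 4 had a log2FC above 0, with a median of 0.09 over the 6. In limma 0 passed at adjusted p below 0.1 and 0 had an unadjusted p below 0.05 (all genes 13.3%). In none did the groups separate, against 9.22% of all genes lower and 9.84% higher. *Cdkn1c* (p57) was 3.98, 3.43 and 2.05 in the controls and 5.10, 4.58 and 3.79 in the treated mice (log2FC 0.54, SE 0.27, adjusted p = 0.430 in limma). *Cdkn1a* (p21) was 52.6, 38.1 and 48.3 against 62.1, 49.3 and 50.0 (log2FC 0.22, adjusted p = 0.517 in limma). In both, 1 or more treated mice lay within the range of the controls. *Cdkn2a*, the other inhibitor listed, was not analysed here.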

How the data were processed

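Crypt libraries of 3 control and 3 GSK503-treated mice were compared, with groups taken from the sample labels. The floxed allele of the model is not reported here. The authors aligned reads to GRCm39 with STAR, estimated counts with RSEM and deposited a signal per gene, the estimated count divided by its TMM-scaled library size. These are not raw counts, so limma (version 3.58.1, R 4.3.3) was used, with lmFit, eBayes with an intensity trend and Benjamini-Hochberg adjustment, on log2(value + 0.1). The filter of at least 0.1 in at least 3 mice left out 1379 of 18049 genes. Each log2FC is on this log2(value + 0.1) scale. Estimated counts were recovered from the step of low values, of which 81.9% to 84.2% under 500 counts were whole within 0.02. An exact two-sided permutation test of 3 mice against 3 reaches 0.1 at best. The limma p-values weigh the difference between groups against the spread between these mice, moderated over all genes. No 2 libraries were identical. The test was checked on simulated data with larger changes than those of the cell cycle genes, so that check does not bear on changes of their size.

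The 39 genes, the pathway and marker lists and the motif letters were chosen with earlier results of these data known. Named genes are the 39, in each pathway list those with adjusted p below 0.1 or the 2 with the smallest p, and up to 3 per marker list. Others (*Rb1*, *Rbl2*, *Lin9*, *Cd79a*, *Ighd*, *Cd14*, *Gsn*, *Vwf*, *Car1*) were named after their values were seen. Positions and canonical transcript lengths came from GENCODE vM39 (GRCm39) and promoter windows from RefSeq (GRCm38.p6). The 19 alternatives are other pseudocounts (0.01, 0.5, 1), filters, scalings, variance models, limma-voom, a replicate block, leaving out each mouse, and the length adjustment. Figures were drawn with matplotlib 3.10.9.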

Additional observations from a re-analysis of the deposited data

How the results depend on the processing

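The direction or side of the threshold of the 39 genes was the same in 663 of 741 values over 19 alternatives, and 22 genes changed sign in 76, all with an absolute log2FC of at most 0.17. The 2 others were *Mki67* at an adjusted p below 0.05. Under scaling by library size alone, 1 gene passed 0.05 and 4 passed 0.1 (*Mki67*, *Cenpe*, *Top2a*, *Bub1b*). Over all genes, 261 of 16653 passed 0.05 in either direction and 4.77% passed 0.1 in the lower direction. Groups without overlap were 14 lower, where 21.3% of all genes were. Other mitosis genes passing were 2 (0.05) and 9 (0.1), other G1/S genes 1 and 3, and other replication genes 2 (0.1). The log2FC that turned were *Mcm2* -0.048, *Mcm5* -0.10, *Cdc6* -0.088, *Cdt1* -0.11, *Tk1* -0.0088, *Ccne1* -0.082, *Ccne2* -0.074, *Myc* -0.098, *Ccna2* -0.11, *Ccnb2* -0.033, *Cdc20* -0.071, *Birc5* -0.11 and *Ube2c* -0.045.

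Under scaling by epithelial markers, 1 and 4 of the 39 passed 0.05 and 0.1. Over all genes, 164 of 16702 passed 0.05 in either direction and 2.95% passed 0.1 in the lower direction. Of the 39, 17 did not overlap in the lower direction (22.1% of all genes). The medians were -0.24 for all 39, -0.13 for G1 and G1/S and -0.25 for mitosis, with a difference in mean level of -0.23. Other mitosis genes passing were 1 and 8, and other G1/S genes 1 and 2. The log2FC that turned were *Mcm2* -0.081, *Mcm5* -0.13, *Cdc6* -0.12, *Cdt1* -0.15, *Rrm2* -0.0038, *Tk1* -0.042, *Ccne1* -0.11, *Ccne2* -0.11, *Myc* -0.13, *Ccna2* -0.14, *Ccnb2* -0.066, *Cdc20* -0.10, *Birc5* -0.14 and *Ube2c* -0.078. Both scalings move the median of all genes by over 0.1, which by construction lowers every log2FC together.

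With limma-voom *Cdt1* was -0.00082. With length-adjusted values *Mcm3* was 0.040, *Cdt1* -0.028, *Ccne1* -0.0032, *Myc* -0.0065, *Ccna2* -0.00091, *Cdc20* -0.00089, *Birc5* -0.087 and *Ube2c* -0.024. The count of other mitosis genes at adjusted p below 0.1 was 0 with length-adjusted values, without the intensity trend, with the replicate block and in every fit without 1 mouse (0 to 0), so *Aspm* passes only in part of the settings. The cause was not tested.

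Leaving out each mouse in turn gave 5 to 10 genes without overlap lower and 0 to 6 higher, where all genes gave 12.4% to 16.1% and 12.7% to 18.5%. The log2FC then ranged over *Mcm3* -0.10 to 0.092, *Mcm5* -0.060 to 0.10, *Mcm7* -0.12 to 0.037, *Cdc6* -0.050 to 0.17, *Cdt1* -0.10 to 0.12, *Rrm2* -0.0081 to 0.34, *Ccnd1* -0.18 to 0.043, *Ccne1* -0.071 to 0.19, *Ccne2* -0.076 to 0.23, *E2f1* -0.49 to 0.052, *Myc* -0.014 to 0.067, *Ccna2* -0.071 to 0.13, *Ccnb1* -0.19 to 0.066, *Cdk1* -0.12 to 0.10, *Aurkb* -0.21 to 0.082, *Plk1* -0.21 to 0.042, *Cdc20* -0.037 to 0.13, *Birc5* -0.078 to 0.16 and *Ube2c* -0.062 to 0.20.

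Replicate numbers do not pair the mice: the deviations of same-numbered mice correlated at 0.03, -0.13 and -0.12. A replicate block lowered the calls over all genes from 107 to 33 and gave 0 of the 39. With 3 mice per group, the median SE of the 39 genes was 0.11 on the log2 scale. The parts of counting error and of the spread between mice in it were not tested.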
